A study of Homo sapiens with 3 samples.

Results

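The genes described here encode the hnRNP proteins and the SR and SR-related proteins, the families of RNA-binding proteins that most widely set which splice sites a human cell uses. The 39 genes were listed by name, 23 for the hnRNP family and 16 for the SR family, out of 20007 protein-coding genes. Their data were all read clusters that carried one of these gene names. No cut on a measured value was used, but the genes were chosen with earlier results of these data known. The clusters came from 3 biological replicates of a MATR3 PAR-CLIP in HEK293, an established human embryonic kidney cell line. All replicates had the wild-type genotype (HEK293-WT), received no treatment and were precipitated with an antibody against MATR3, so they formed 1 group without a control library. Values were compared between the families and with all protein-coding genes within each replicate.

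MATR3 (Matrin-3) is a nuclear RNA-binding protein with RNA recognition motifs and zinc fingers that associates with introns and takes part in splicing. hnRNP proteins package nascent transcripts and often repress exons, whereas SR proteins carry arginine-serine domains and often promote exon inclusion. Many genes of both families control their own output by splicing: they include a conserved exon that brings in a premature stop codon, and the transcript is then destroyed by nonsense-mediated decay. Below, decay exon means any annotated exon of a nonsense-mediated decay transcript that overlaps no exon of a protein-coding transcript. Its conservation was not checked. In PAR-CLIP, cells take up a photoreactive uridine analogue that crosslinks to bound protein and is read as a T-to-C change, so a cluster of reads with T-to-C marks a contact.

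Replicates 1, 2 and 3 held 133088, 131679 and 124040 clusters with 1649124, 1506682 and 1532602 reads. The 39 genes had 473, 409 and 467 of these clusters, 0.355%, 0.311% and 0.376% of the total, with 8013, 5870 and 7967 reads. The median cluster of these genes had 12, 11 and 11 reads, against 9, 8 and 9 over all clusters. No deposited cluster had fewer than 4 reads, 2 conversion locations or 20 nt, so weaker contacts were not seen. Reads had no molecular identifiers. Transcript levels were not used here, so high binding and high abundance of a transcript cannot be told apart.

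Nearly every gene of both families was bound in every replicate. A cluster was present in all 3 replicates for 36 of the 39 genes (22 hnRNP, 14 SR), beside 40.8% of all protein-coding genes. The exceptions were HNRNPH2, a paralogue of HNRNPH1, with 1 cluster of 5 reads in replicate 2, SRSF12 with 1 cluster of 7 reads in replicate 1, and SRSF8 without any cluster. At least 1 site overlapped across all replicates in 15 genes (9 hnRNP, 6 SR), or 38.5%, beside 10.9% of all protein-coding genes. A cluster in the 3' UTR was found in all replicates for 14 genes (9 hnRNP, 5 SR), beside 7.15%, and a coding cluster for 5 genes (3 hnRNP, 2 SR), beside 1.75%. These shares are not matched on gene length or transcript level.

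Among the hnRNP genes, HNRNPUL1 and HNRNPM had the most reads. Read levels are given in RPM: a gene's cluster reads, summed, were scaled to 1000000 reads over every cluster with a gene name in that replicate. They grow with gene length. HNRNPUL1, which encodes a protein related to the scaffold protein HNRNPU, had 659, 550 and 659 RPM in 43, 36 and 44 clusters over chr19:41262496-41307787. HNRNPM, whose product binds GU-rich RNA and regulates alternative exons, had 503, 431 and 587 RPM in 38, 34 and 43 clusters over chr19:8444767-8489114. Per length the genes were alike, with 0.905 ± 0.0962 clusters per kb for HNRNPUL1 and 0.864 ± 0.102 for HNRNPM (SD, n = 3). Introns held 33, 30 and 41 of the HNRNPUL1 clusters and 38, 32 and 39 of those of HNRNPM.

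The strongest cluster of both genes changed place from replicate to replicate. In HNRNPUL1 it lay in intron 7 with 104 reads, intron 13 with 71 and intron 10 with 87, counted on the canonical transcript. In HNRNPM it lay in intron 15 in replicates 1 and 2, with 137 and 111 reads in neighbouring, non-overlapping clusters, and in intron 5 in replicate 3 with 92 reads. No pair of these highest clusters overlapped in either gene.

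HNRNPC, whose product binds uridine tracts and masks cryptic exons, had 399, 306 and 425 RPM in 41, 37 and 38 clusters. It was the longest hnRNP gene at 60.4 kb, and per length its 0.641 ± 0.0345 clusters per kb (SD, n = 3) was close to the hnRNP median of 0.606. It had no site that overlapped in all replicates. HNRNPF, which encodes a binder of guanine runs, had 408, 382 and 318 RPM and 1.23 ± 0.0849 clusters per kb (SD, n = 3). The densest hnRNP gene, the short HNRNPAB at 1.31 ± 0.314, differed from it by less than the spread. HNRNPR, a paralogue of SYNCRIP, had 260, 248 and 224 RPM, and PCBP2, a KH-domain protein that binds cytidine-rich RNA, had 222, 178 and 341. The top cluster of HNRNPR stood in intron 5 in replicates 2 and 3 with 103 and 58 reads, and these clusters overlapped.

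The remaining hnRNP genes ranged from HNRNPH2 at 1.25 ± 2.17 to HNRNPD at 217 ± 153 RPM (SD, n = 3). HNRNPD, which encodes the AU-rich element binder AUF1, varied most in absolute terms, with 181, 85.8 and 386 RPM. HNRNPA1, an exon repressor, had 126, 18 and 177 reads, so replicate 2 was far below the others. HNRNPLL had 7, 31 and 139 reads, again without a stable level. SYNCRIP had 133, 163 and 142 RPM and HNRNPH1, a guanine-run binder, had 115, 138 and 133, with replicates close together. HNRNPA1, HNRNPA3, HNRNPC and HNRNPH1 have near-identical copies elsewhere in the genome. How reads with several matches were placed is not given in the sources used here, so their counts are uncertain.

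Sites that overlapped in all replicates mark where the clusters of the replicates meet, and their sequences are printed for that reason. Whether the sites lie in repeats was not checked, so reads with several matches may stand behind some of them. A site here is a cluster that overlaps clusters of both other replicates, together with those clusters. The hnRNP genes had 11 such sites in 9 genes, 8 of them in introns. In replicates 1, 2 and 3 the PCBP2 site in intron 8 (chr12:53464437-53464535, plus strand) had 16, 13 and 25 reads, and the HNRNPM site in intron 13 (chr19:8484529-8484606, plus strand) had 9, 27 and 9. The HNRNPF site in intron 1 (chr10:43408147-43408219, minus strand) had 7, 10 and 8 reads. HNRNPDL, a paralogue of HNRNPD, had 14, 9 and 16 reads in intron 1 (chr4:82428909-82428963, minus strand). In HNRNPU, which encodes a nuclear scaffold protein, the 12, 7 and 5 reads lay across the border of an intron and coding sequence, and the bases common to all replicates are chr1:244862727-244862753 on the minus strand. The sequences read 5′ to 3′ in hg38, and capitals mark bases covered in all 3 replicates.
PCBP2: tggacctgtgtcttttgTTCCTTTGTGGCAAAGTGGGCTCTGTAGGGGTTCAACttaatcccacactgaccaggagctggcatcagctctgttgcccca
HNRNPM: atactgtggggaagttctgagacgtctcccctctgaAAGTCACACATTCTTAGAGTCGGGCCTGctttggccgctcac
HNRNPF: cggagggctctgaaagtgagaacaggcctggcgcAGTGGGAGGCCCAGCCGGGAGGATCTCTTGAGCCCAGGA
HNRNPDL: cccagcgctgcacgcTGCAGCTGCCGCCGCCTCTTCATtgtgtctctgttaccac
HNRNPU: TATGGGGCTCGTGTGTGTTTTAGGGGA
The common stretch was 37 nt in PCBP2, 28 in HNRNPM, 39 in HNRNPF, 23 in HNRNPDL and 27 in HNRNPU. None of the 5 printed hnRNP sequences holds ATCTT, which is AUCUU in RNA and the known MATR3 motif, searched on the transcribed strand only.

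Elsewhere the sites agreed only loosely. Another HNRNPF site in intron 1, 1445 nt from the nearest exon, had 54, 72 and 11 reads but no base covered in all replicates. The same was true of HNRNPL, a binder of CA repeats, with 34, 25 and 10 reads in intron 2, of HNRNPM in intron 15 with 22, 40 and 10, and of HNRNPUL1 with 61, 10 and 17 at a coding exon. HNRNPH1 in intron 4 had 9, 22 and 11 reads with 9 bases in common, and HNRNPR in intron 2 had 31, 6 and 21 with 13.

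Among the SR genes, SRRM2, which encodes a large scaffold protein of nuclear speckles, had the most reads. It had 378, 213 and 475 RPM in 20, 14 and 16 clusters over chr16:2752626-2772538, and 24.7 reads per kb, the highest of all 39 genes. Its clusters lay mostly in coding sequence, with 14, 7 and 8 coding clusters against 6, 5 and 7 in introns. TRA2B, which encodes a splicing activator, had 280, 157 and 240 RPM, with 17, 7 and 22 intron clusters. Replicate 2 was lowest for both genes, and for SON as well. SON, another speckle scaffold protein, had 229, 97.1 and 135 RPM in 25, 11 and 19 clusters.

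SRSF4, one of the longer SR proteins, was lowest in replicate 1, with 108, 151 and 140 RPM, and 97.9% of its clusters were in introns. SRRM1, a splicing coactivator, had 134, 97.9 and 138 RPM, and SRSF10, which acts as a repressor when dephosphorylated, had 91.1, 61.0 and 141. The strongest SRSF10 clusters of replicates 1 and 3 overlapped, in intron 2 with 60 reads each. The strongest SRRM1 cluster lay in intron 5 in replicates 1 and 3, with 59 and 90 reads, and in intron 9 in replicate 2 with 36. Per length, TRA2B had 0.793 ± 0.319 clusters per kb, SRRM2 0.837 ± 0.153 and SRRM1 0.241 ± 0.0637 (SD, n = 3).

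The remaining SR genes ranged from none for SRSF8 to 93.7 ± 40.7 RPM for SRSF11 (SD, n = 3). They differed in where they were bound. SRSF6 had 90.9% of its clusters in the 3' UTR, SRSF1 77.8% and SRSF2 64.3%, and SRSF2 had no intron cluster. SRSF3 had 75% of its clusters in introns, SRSF9 93.3% and SRSF11 96.2%. SRSF2 was the densest gene per length at 1.45 ± 0.999 clusters per kb (SD, n = 3), but its 7, 1 and 6 clusters differed widely.

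**Figure D1:**
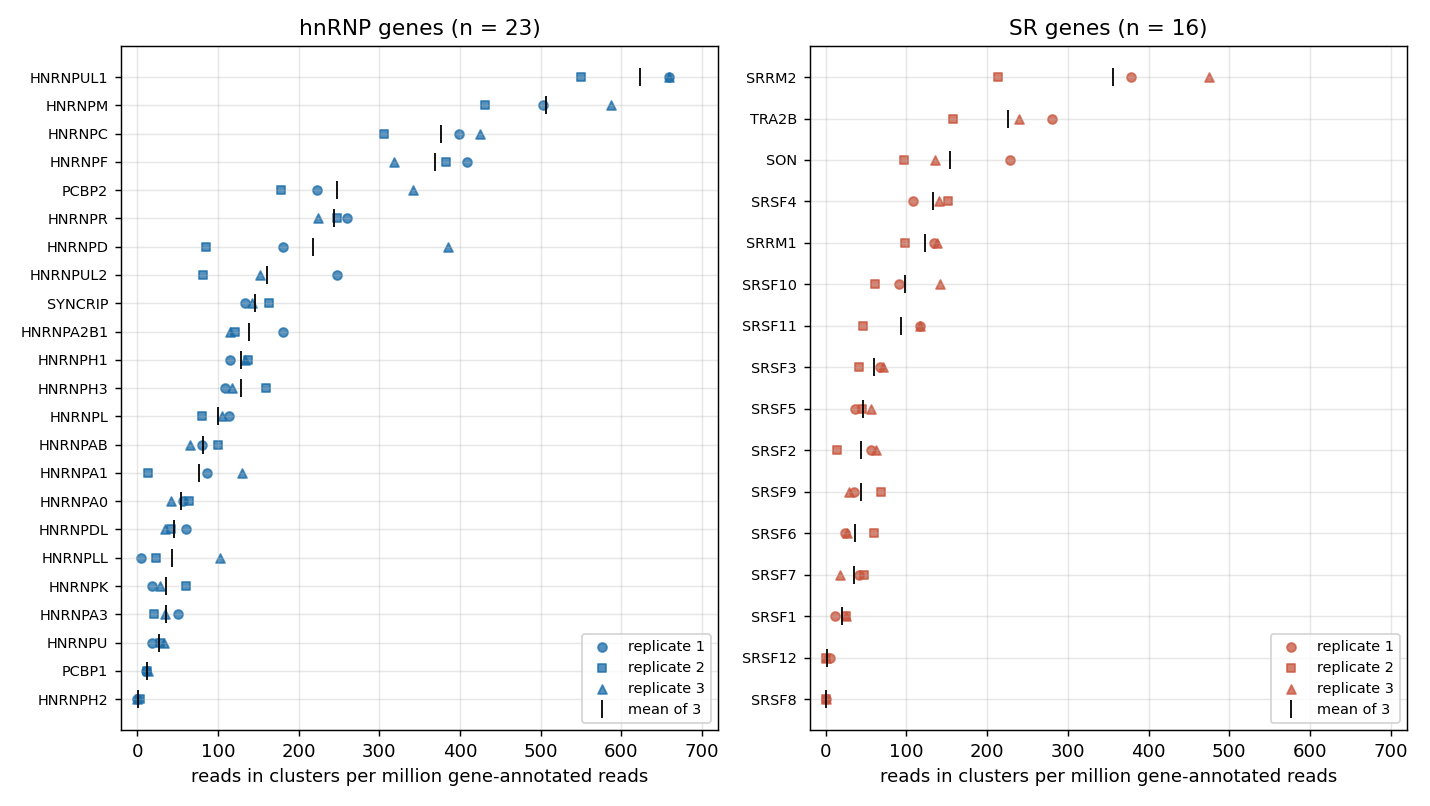
Reads in clusters, in RPM of gene-annotated reads (x axis), for the 23 hnRNP genes (left) and 16 SR genes (right), with circles, squares and triangles for replicates 1, 2 and 3 and a bar for their mean. HNRNPUL1 leads at 623 and SRRM2 leads the SR genes at 355, while HNRNPH2, SRSF12 and SRSF8 lie at or near 0.

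The SR genes had 8 sites overlapping in all replicates, in 6 genes, and 6 of the sites were in introns. In replicates 1, 2 and 3, SRRM2 had 14, 11 and 15 reads at a site in intron 1 (chr16:2755686-2755749, plus strand). SRSF4 had 10, 40 and 29 at a site in intron 1 (chr1:29180910-29181055, minus strand), 591 nt from the nearest exon. SON had 44, 34 and 6 reads at the start of intron 1, where the bases common to all replicates are chr21:33543275-33543309 on the plus strand. These are the longest common stretches of the family, in hg38, 5′ to 3′, with capitals for bases covered in all 3 replicates.
SRRM2: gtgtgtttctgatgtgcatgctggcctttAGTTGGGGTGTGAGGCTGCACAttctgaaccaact
SRSF4: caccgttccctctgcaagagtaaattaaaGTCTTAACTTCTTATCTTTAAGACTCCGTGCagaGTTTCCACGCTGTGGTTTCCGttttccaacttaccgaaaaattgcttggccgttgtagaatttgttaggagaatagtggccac
SON: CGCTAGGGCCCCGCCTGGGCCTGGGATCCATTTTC
The SRSF4 sequence holds ATCTT once, inside the capitals. Of all 19 sites in both families it was the 1 whose longest common stretch held the motif; some sites have no common stretch.

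Other SR sites shared fewer bases. SRRM2 had 16, 25 and 28 reads in intron 3 with 4 bases in common, and 9, 71 and 22 reads in coding exon 11 with none. TRA2B had 28, 7 and 26 reads in intron 1, also with none. SRSF5 in intron 5 had 13, 5 and 13 reads, and SRRM1 in intron 9 had 14, 36 and 5.

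By annotation class, clusters of both families lay less often in introns than clusters of all protein-coding genes. Introns held 75.4%, 78.7% and 78.1% of hnRNP clusters and 66.9%, 65.1% and 70.7% of SR clusters, against 88.0%, 87.3% and 87.1% over all. The share in 3' UTRs was 10.4% ± 1.35 for hnRNP, 14.6% ± 2.26 for SR and 6.12% ± 0.431 over all protein-coding genes. The share in coding sequence was 3.77% ± 0.499, 14% ± 1.04 and 2.06% ± 0.194 (SD, n = 3). No replicate of one family overlapped the other in the intron or the coding share.

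The hnRNP share exceeded the SR share by 9.83 ± 3.24 percentage points in introns, and fell below it by 4.22 ± 2.54 points in 3' UTRs and by 10.2 ± 1.54 points in coding sequence (SD, n = 3; same direction in 3 of 3 replicates). Each gave p = 0.25 in an exact two-sided sign-flip permutation test over replicates. That is the smallest p that 3 replicates allow, so none of the 48 tests made this way, here and below, can reach 0.05. The genes behind the coding share were few. SRRM2 held 51.9% ± 10.9 of SR coding clusters and SON 24.6% ± 9.61 (SD, n = 3), and without these genes the SR coding share was 4.51% ± 0.822, beside 3.77% for hnRNP. Exons made up 22.6% of the length of the hnRNP genes, 20.9% of the SR genes and 6.15% of all protein-coding genes, and the part of this in the class shares was not tested.

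Clusters were denser on the hnRNP genes than on the SR genes. Per kb of gene, hnRNP genes had 0.622, 0.574 and 0.639 clusters, SR genes 0.411, 0.302 and 0.369, and all protein-coding genes 0.0791, 0.0789 and 0.0747. The families did not overlap, and the lowest SR value was well above the general one. The hnRNP genes exceeded the SR genes by 0.251 ± 0.0344 clusters per kb (SD, n = 3; 3 of 3 replicates; exact sign-flip permutation p = 0.25). The size depends on the gene length used. Over the span of the canonical transcript, hnRNP genes had 0.673 ± 0.0435 and SR genes 0.478 ± 0.0784 clusters per kb, a difference of 0.195 ± 0.0521. With each gene weighted equally the difference was 0.165 ± 0.0435 (SD, n = 3). Both families together had 6.58 ± 0.632 times the density of all protein-coding genes (SD, n = 3). The general level includes genes without any cluster, and transcript levels were not matched.

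The family difference was in introns, though its size there also depends on the gene length used. Intron clusters per kb of intron were 0.611 ± 0.0313 for hnRNP, 0.309 ± 0.0524 for SR and 0.0723 ± 0.00263 over all (SD, n = 3). Intron length was the annotated gene span outside exons. SRSF5, SRSF9 and SRSF11 spanned 45.1, 34.3 and 47.4 kb, with 3.31, 1.29 and 4.08 kb of exon. Intron density over the canonical transcript was not computed. Exon clusters per kb of exon were 0.483 ± 0.0530 for hnRNP, 0.530 ± 0.0806 for SR and 0.120 ± 0.00373 over all (SD, n = 3). The order of the families thus turned, with hnRNP minus SR at -0.0469 per kb. SRRM2 alone had 14, 7 and 8 coding clusters in replicates 1, 2 and 3. It held 9.61 of the 75.4 kb of SR exon, and exon density without SRRM2 was not computed. Reads per kb of gene were 10.04 ± 1.45 for hnRNP and 5.65 ± 1.30 for SR. Clusters covered 17.7 ± 0.511 kb of the hnRNP genes at 16.4 ± 1.56 reads per cluster and 6.91 ± 0.849 kb of the SR genes at 15.5 ± 1.71 (SD, n = 3). The families thus differed in the number of clusters more than in reads per cluster.

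**Figure D2:**
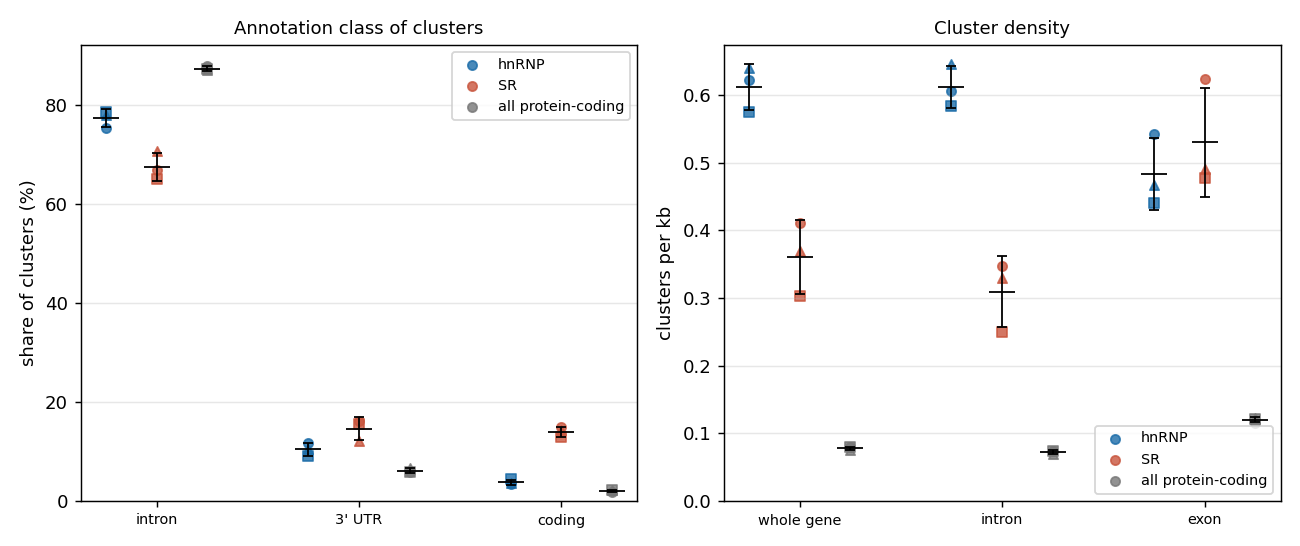
Left, the share of clusters (%) in introns, 3' UTRs and coding sequence; right, clusters per kb of whole gene, intron and exon, for hnRNP genes, SR genes and all protein-coding genes (circles, squares and triangles for replicates 1, 2 and 3, bars for mean ± SD, n = 3). SR genes have the highest coding share, 14%, and hnRNP genes exceed SR genes in intron density, 0.611 against 0.309 per kb, while exon densities overlap. Intron length is the annotated gene span outside exons.

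The families shared clusters between replicates at similar rates. A cluster overlapped one of another replicate by at least 1 nt in 23.7%, 27.7% and 22.5% of hnRNP clusters, 25.7%, 29.4% and 22.6% of SR clusters and 21.6%, 21.2% and 22.5% of all. The difference was -1.26 ± 1.013 percentage points (SD, n = 3; exact sign-flip permutation p = 0.25), and its direction turned under 5 of the settings given in the closing section.

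Dense genes overlap more readily, so the same clusters were also moved by 1000 nt. After moving, 19.2% ± 0.398 of hnRNP clusters still met a cluster of another replicate, against 12.2% ± 1.19 for SR and 11.1% ± 0.342 over all. In place exceeded moved by 5.43 ± 3.08 points for hnRNP, 13.7 ± 4.45 for SR and 10.6 ± 0.341 over all (SD, n = 3). hnRNP minus SR was -8.27 ± 1.83 points and had the same sign in 3 of 3 replicates (exact sign-flip permutation p = 0.25). Without replicate 1 it was -2.97, with overlaps counted between 2 libraries only, and with each gene weighted equally it was -0.602. Without SON, SRRM1, SRRM2 and TRA2B, and without SYNCRIP, PCBP1 and PCBP2 in the hnRNP family, SR clusters were found again in 17.6% ± 0.808 and hnRNP clusters in 26.3% ± 3.51 (SD, n = 3), and the difference above the moved level was 1.31 points.

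**Figure D3:**
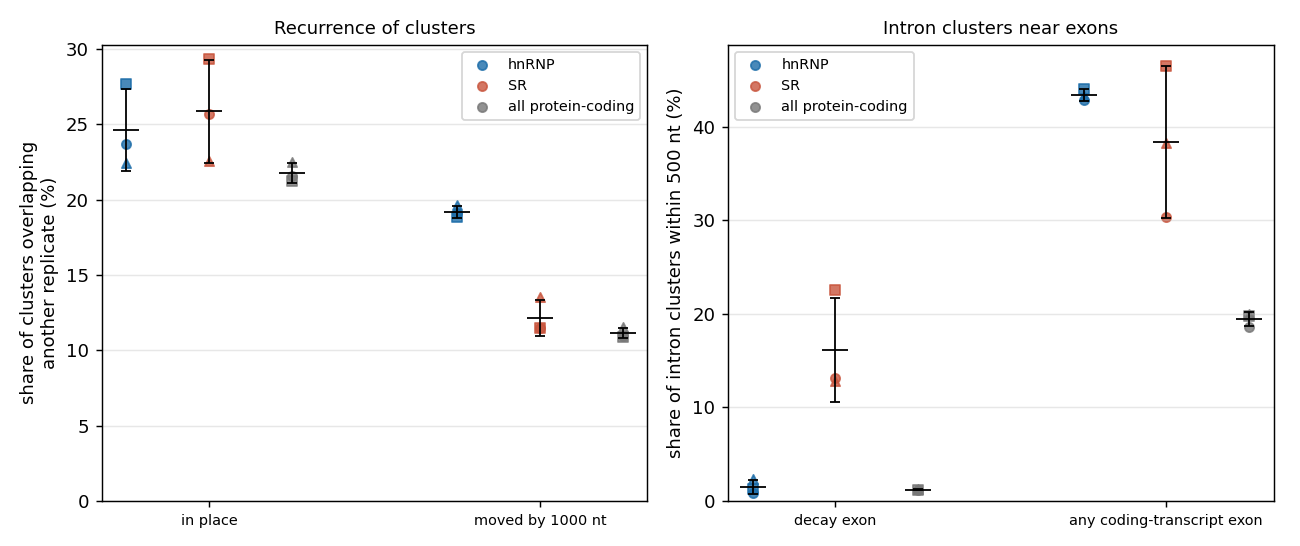
Left, the share of clusters (%) that overlap another replicate in place and after moving by 1000 nt; right, the share of intron clusters (%) within 500 nt of a decay exon and of any exon of a coding transcript, with circles, squares and triangles for replicates 1, 2 and 3 and bars for mean ± SD (n = 3). In place, families lie close together at 24.6% and 25.9%; near decay exons, SR genes stand at 16.1% and hnRNP genes at 1.46%.

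Conservation of introns was not measured here, and decay exons stood in for conserved introns. They were taken from GENCODE 44 as exons of nonsense-mediated decay transcripts that overlap no exon of a protein-coding transcript. Of the SR genes, 12 had such exons, 27 in all, and of the hnRNP genes 8 had them, 13 in all, beside 21.9% of all protein-coding genes. Transcripts annotated for nonsense-mediated decay were present in 16 of 16 SR and 16 of 23 hnRNP genes, beside 7817 of 20007 protein-coding genes. The counts of genes with decay exons thus depend on the rule. SRSF1, SRSF2 and HNRNPD are among the genes without an exon that met it. An intron cluster within 500 nt of a decay exon was present in any replicate for 14 of the 39 genes (10 SR, 4 hnRNP), beside 5.47% of all protein-coding genes.

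Of SR intron clusters, 13.1%, 22.5% and 12.8% lay within 500 nt of a decay exon, against 0.816%, 1.27% and 2.30% of hnRNP and 1.19%, 1.15% and 1.26% of all intron clusters. hnRNP minus SR was -14.7 ± 5.77 points (SD, n = 3; 3 of 3 replicates; exact sign-flip permutation p = 0.25). Without SON the SR share was 13.5% ± 5.71. The number of decay exons moves with this share. Per length of intron, the density near decay exons over that in the rest of the introns was 1.27, 2.51 and 1.25 for SR and 0.252, 0.366 and 0.657 for hnRNP, against 1.17, 1.16 and 1.26 over all. SR exceeded all genes by 0.476 ± 0.756 (SD, n = 3), in 2 of 3 replicates (exact sign-flip permutation p = 0.5), a difference within the spread. hnRNP lay below all genes in 3 of 3 replicates, with a difference of -0.773 ± 0.162 (SD, n = 3). Behind the hnRNP ratios stood only 2, 3 and 6 clusters near decay exons, and only genes with decay exons entered these ratios. Without HNRNPUL1 the hnRNP ratios were 0.347, 0.466 and 0.949. In this ratio hnRNP minus SR was -1.25 ± 0.803 with pooled clusters and -0.583 ± 1.33 with each gene weighted equally (SD, n = 3).

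For closeness to exons in general, the families differed by less than the spread between replicates. Within 500 nt of any exon of a coding transcript lay 43.4% ± 0.613 of hnRNP and 38.4% ± 8.09 of SR intron clusters, against 19.4% ± 0.752 over all (SD, n = 3). These shares were not scaled to the intron length near exons. Exons made up 22.6% of the hnRNP genes, 20.9% of the SR genes and 6.15% of all protein-coding genes. The family difference was 5.05 ± 7.48 points (SD, n = 3; 2 of 3 replicates; exact sign-flip permutation p = 0.5). It was 11.3 ± 5.52 points in the reduced families, without the SR-related genes, SYNCRIP, PCBP1 and PCBP2 (SD, n = 3; exact sign-flip permutation p = 0.25), and 1.29 to 8.78 leaving out 1 replicate.

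Gene by gene, SON contributed 4, 3 and 4 clusters near decay exons in replicates 1, 2 and 3, SRSF4 3, 3 and 1, and SRRM2 1, 3 and 1. SRSF10 had 0, 3 and 1, TRA2B 2, 0 and 2, SRSF7 and SRSF9 each 1, 2 and 0, SRSF3 0, 0 and 2, and SRSF6 and SRSF11 a single cluster each. Among hnRNP genes, HNRNPL had 1 in each replicate, HNRNPA2B1 1, 1 and 2, PCBP2 0, 1 and 1, and HNRNPH1 0, 0 and 2. SON, SRSF4, SRRM2, HNRNPL and HNRNPA2B1 were thus the genes with such a cluster in every replicate. In each replicate 3 of the SR clusters overlapped one of another replicate, and none of them overlapped in all 3.

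**Figure D4:**
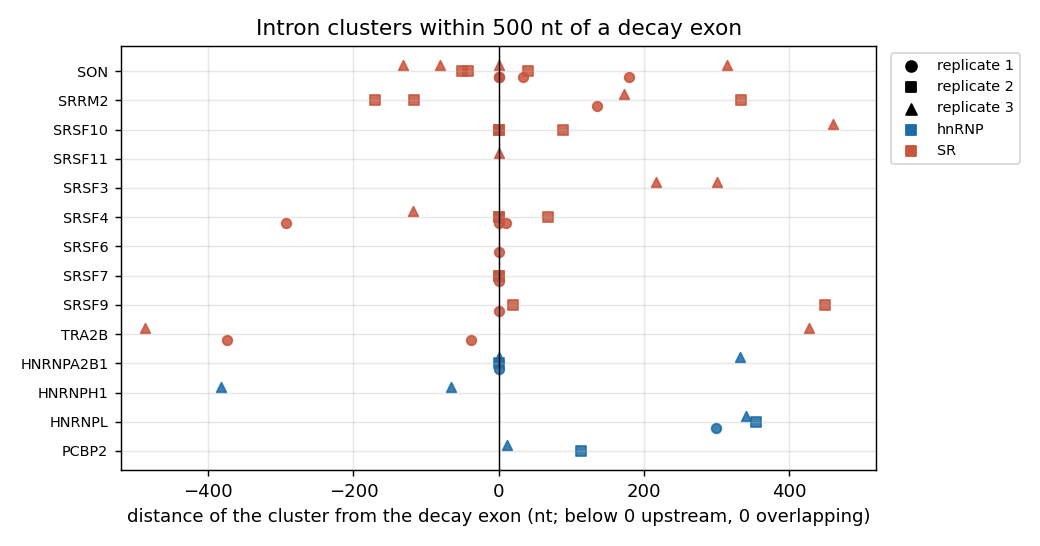
Distance in nt of each intron cluster from the nearest decay exon of its gene (x axis, below 0 upstream, 0 overlapping), within 500 nt, for the 10 SR and 4 hnRNP genes with such a cluster (circles, squares and triangles for replicates 1, 2 and 3). SON, SRRM2, SRSF4, HNRNPA2B1 and HNRNPL have points from all replicates, and the 3 HNRNPL points lie between 299 and 354 nt downstream.

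Some of the clusters that came back near decay exons are printed because they give positions behind these counts. Clusters with more than 30 nt inside the decay exon were left out, and not all of the others are shown. SON replicates 1 and 2 overlapped downstream of a 38-nt decay exon (chr21:33571751-33571788), at 33 and 41 nt, with 9 and 7 reads. At the 80-nt SON exon chr21:33572551-33572630, replicates 1 and 3 each had a cluster of 5 reads over the exon, while replicates 2 and 3 overlapped upstream with 9 and 8 reads. In SRSF4, a cluster of 11 reads in replicate 1 lay 10 nt downstream of chr1:29168503-29168638 and overlapped one of 26 reads over that exon in replicate 2. In TRA2B, a cluster of 22 reads in replicate 3 lay 487 nt upstream of the 276-nt exon chr3:185931577-185931852. In HNRNPL, replicates 2 and 3 overlapped with 8 and 21 reads, 354 and 341 nt downstream of chr19:38841613-38841682, and the replicate 1 cluster stood 299 nt downstream with 7 reads. The sequences are in hg38, 5′ to 3′, with capitals for bases that a cluster of another replicate also covers. Their positions are chr21:33571821-33571860 and chr21:33572556-33572581 for SON on the plus strand. The others are chr1:29168437-29168493 for SRSF4, chr3:185932339-185932408 for TRA2B and chr19:38841197-38841272 for HNRNPL, on the minus strand.
SON, replicate 1: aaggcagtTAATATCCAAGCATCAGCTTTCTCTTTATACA
SON, replicate 3: AATCCTTGTAGCTGTCTTCTTGCCCC
SRSF4, replicate 1: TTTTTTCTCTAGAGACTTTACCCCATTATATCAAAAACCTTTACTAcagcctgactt
TRA2B, replicate 3: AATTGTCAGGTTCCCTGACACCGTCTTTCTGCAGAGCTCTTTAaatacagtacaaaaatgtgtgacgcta
HNRNPL, replicate 3: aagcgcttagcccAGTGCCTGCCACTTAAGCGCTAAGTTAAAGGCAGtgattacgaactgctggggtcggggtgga
None of these 5 sequences holds ATCTT on the transcribed strand. Few reads stood behind each of them, and only HNRNPA2B1 had clusters over a decay exon itself in all replicates. Those lay in the 954-nt exon chr7:26199189-26200142, with 20, 15 and 9 reads.

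Per read, T-to-C was less frequent in both families than in all protein-coding genes; per T position the values lay within the spread. The share was 81.3%, 81.2% and 81.4% for hnRNP and 79.3%, 82.5% and 76.5% for SR, against 86.7%, 85.7% and 86.7% over all. The difference from all was -5.09 ± 0.517 points for hnRNP and -7.0 ± 3.55 points for SR (SD, n = 3; 3 of 3 replicates; exact sign-flip permutation p = 0.25 for each). Without SRRM2 the SR share was 84.2% ± 1.04, against 86.4% ± 0.585 over all (SD, n = 3). hnRNP minus SR was 1.91 ± 3.13 points (SD, n = 3; 2 of 3 replicates; exact sign-flip permutation p = 0.5). Counted per T position, conversion was 11.05% ± 0.450 for hnRNP, 10.7% ± 0.735 for SR and 10.98% ± 0.373 over all (SD, n = 3). These genes also had more reads per cluster, 16.4 and 15.5 against 12.1 over all, and the part of this was not tested. SRRM2 stood lowest among the SR genes with 64.4% ± 5.56 (SD, n = 3), and SRSF1 was next with 64.6% ± 36.1 on few clusters. The SRRM2 coding clusters had 52.6%, 63.7% and 49.7%, against 81.4% ± 1.07 for all coding clusters (SD, n = 3). The coding clusters of SON had 88.3% ± 12.7 (SD, n = 3). The intron clusters of SRRM2 had 80.4% ± 3.27, against 87.5% ± 0.621 for all intron clusters (SD, n = 3), so SRRM2 stood further from all genes in coding sequence than in introns. HNRNPA0, an intronless gene whose clusters lie mostly in the 3' UTR, had 53.7% ± 9.25 (SD, n = 3).

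ATCTT was present in 7.77% ± 1.56 of hnRNP clusters and 7.71% ± 0.821 of SR clusters, against 9.38% ± 0.401 over all (SD, n = 3). The family difference of 0.0581 ± 2.04 points was within the spread (SD, n = 3; exact sign-flip permutation p = 1). Both families lay below all genes in 3 of 3 replicates. In introns alone the shares were 8.30% ± 1.71, 8.33% ± 0.829 and 9.68% ± 0.361 (SD, n = 3). Intron clusters of both families together were 53.4% ± 1.18 pyrimidine, against 57.5% ± 0.856 over all, and their 3' UTR clusters were 39.9% ± 1.92 G and C, against 49.4% ± 0.584 (SD, n = 3).

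Most genes that act with these factors were also bound in every replicate. The first list held SR protein kinases, SR protein import genes and PPIG, and 9 of its 9 genes had a cluster in all 3 replicates. The same was found for 36 of 43 core spliceosome genes and 7 of 8 exon junction complex genes, beside 40.8% of all protein-coding genes. Their median densities were 0.320, 0.355 and 0.267 clusters per kb, against 0.518 for the 39 genes and 0.0124 for all protein-coding genes. When only genes bound in every replicate were kept, the medians were 0.538 for the 39 genes and 0.202 for protein-coding genes in general. SRPK1, an SR protein kinase, led its list with 778 ± 137 RPM, ahead of the kinase CLK3 with 478 ± 78.8 and the importin TNPO3 with 408 ± 79.5 (SD, n = 3). SNRNP70, of the U1 particle, had 354 ± 155, SF3B3 274 ± 57.5 and DHX15 245 ± 27.9. ACIN1 had 423 ± 182, RNPS1 210 ± 57.9 and CASC3 108 ± 40.0 (SD, n = 3).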

How the data were processed

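MATR3 PAR-CLIP clusters from 3 biological replicates of HEK293 were used as the authors deposited them, called in each replicate separately. Reads, distinct reads, conversion locations and conversion events per cluster were deposited as whole counts, and the T-to-C share of reads is a deposited fraction between 0 and 1. The build is hg38, per the submitters' processing notes, and all 473, 409 and 467 cluster sequences of the 39 genes equalled hg38 at their coordinates. The aligner, cluster caller, annotation release and treatment of reads with several matches are not given in the sources used here.

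Genes were matched by exact name, and annotation classes were the authors'. Gene spans, exons and decay exons came from GENCODE 44. Shares and densities were computed per replicate over the pooled clusters of a family and compared with exact two-sided sign-flip permutation tests over 3 replicates. Overlap meant at least 1 nt on the same strand. Moved clusters were shifted by 1000 nt in both directions. The labels call the samples biological replicates and say no more of their origin. SDs measure the spread between these libraries, and clusters of 1 library are not independent. The p-values reflect only the signs and relative sizes of the differences in the 3 replicates.

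Named in full were the 6 genes of each family with the largest geometric mean of RPM and every gene with a site in all replicates. HNRNPA0, HNRNPA2B1, HNRNPD, HNRNPA1, HNRNPLL and other genes were named after their values were seen. The genes and lists were chosen with earlier results of these data known. Alternatives were other cluster minimums, overlaps, windows, moving distances, weights, gene sets and lengths, and leaving out each replicate. Chosen after seeing the data were the canonical transcript as length, leaving out SON or SON and SRRM2, the alternatives for families against all genes, and T-to-C shares per gene. The overlap step was tested on simulated data. Python 3.11.15, numpy 2.4.6, pandas 2.3.3, scipy 1.17.1 and matplotlib 3.10.9 were used.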

Additional observations from a re-analysis of the deposited data

How the results depend on the processing

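Over 22 results, 177 of 201 alternative values kept the direction or size of the reported value; p cannot fall below 0.25, so only directions are compared. Exon clusters per kb of exon turned hnRNP minus SR to -0.0469, a value not computed without SRRM2. For the share found in another replicate, hnRNP minus SR was 1.86 points keeping clusters with the median read count or more, 8.71 without the SR-related genes and SYNCRIP, PCBP1 and PCBP2, 0.207 without HNRNPUL1 and SRRM2, 1.72 with genes weighted equally, and -3.25 to 0.0231 leaving out 1 replicate. Above the moved level it was -8.27, 1.31 without those genes, -0.602 with equal weights and -8.19 to -2.97 leaving out 1 replicate. Without those genes, SR minus all genes was -4.17, or -5.86 above the moved level. For the share found, hnRNP minus all genes ranged from -0.487 to 3.16 leaving out 1 replicate, lowest without replicate 2. The hnRNP minus SR difference in T-to-C reads, 1.91, turned to -3.29 in the reduced families, -2.35 without HNRNPUL1 and SRRM2 and -0.765 with equal weights. The ATCTT difference was -1.0 at the median read count, -0.600 with 3 distinct reads, -0.222 without HNRNPUL1 and SRRM2, -0.0657 per 1000 nt, -0.0248 in introns, and -0.721 to 1.22 leaving out 1 replicate.

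Genes with a site in all replicates numbered 15 of 39, beside 10.9% of all protein-coding genes. They were 9 at the median read count, beside 7.28%, and 6 with 50% overlap, beside 3.82%. Over pairs of replicates, where fewer libraries must agree, they were 22 to 26, beside 22.6% to 23.5%. With no change of direction, the coding difference was -0.0518 in the reduced families and -3.72 without HNRNPUL1 and SRRM2, the 3' UTR difference was -11.4 in the reduced families, and the intron difference ran from 4.19 without HNRNPUL1 and SRRM2 to 15.8 at the median read count. The cause was not tested. With 109 to 148 SR clusters per replicate, and 12 to 16 near decay exons, small differences in SR shares were not detectable. With 3 replicates, no difference of any size could reach 0.05 in the sign-flip permutation test.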

Other observations

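Some deposited names overlap the names of these genes but were not counted with them. HNRNPU-AS1 had 4 clusters in each replicate, SRRM2-AS1 1, 2 and 2, PCBP1-AS1 45, 21 and 31, and the read-through name HNRNPUL2-BSCL2 6, 4 and 6. PCBP1 itself, an intronless gene encoding a poly(C)-binding protein, had 1 cluster in each replicate, so the antisense name held many more clusters than the gene. PCBP1 is 1.73 kb long, and these counts were not scaled to length.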
